A study of Pan troglodytes with 50 samples.

Results

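Narrow H3K27ac peaks that chimpanzee neural progenitors shared between the N2 and N3 stages were compared for their width, summit and signal rank. The members were chosen from the peak lists themselves. A peak of the N2 list was a member if it was under 5000 bases wide and overlapped, by 1 base or more, an N3 peak under 5000 bases wide. The rule kept 42653 of the 102693 N2 peaks, which is 43.8% of the 97360 N2 peaks under the width limit. On the N3 side 41939 of 85031 narrow peaks (49.3%) were partners of a member, out of 89425 N3 peaks in all. Among peaks of any width, 50.8% of N2 peaks touched an N3 peak of any width. These counts follow from the rule and are descriptions.

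H3K27ac is an acetyl mark on a lysine in the tail of histone H3. It is laid down by the acetyltransferases EP300 and CREBBP and marks nucleosomes next to active promoters and enhancers. The stretch bound by transcription factors is itself often free of nucleosomes, so the mark commonly flanks it on both sides. Neural progenitors first make neurons and later turn to making glia, and many of their enhancers gain or lose the mark on the way.

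All cells came from Pt2A, an induced pluripotent stem cell (iPSC) line made from a single chimpanzee, and the labels give the tissue as telencephalon, the front part of the forebrain. Cells of both stages carry the label of iPSC-derived neural progenitors. N2 cells are further named neural progenitor cells and N3 cells glial progenitor cells, and both grew in N2B27 medium with bFGF and EGF at 20 ng/mL on Matrigel. The labels list 2 H3K27ac and 2 input libraries at each stage, but the peaks used here were called on pooled libraries, so each stage has 1 list. There is thus no replicate check of any difference between N2 and N3, no test was run, and counts are read against size limits only. The depth behind the lists is unknown, and a difference between stages cannot be told apart from a difference between the 2 pools. The remaining libraries of the series are reporter assays of human accelerated regions and were not used here.

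Peaks are named by position, because no gene annotation of their assembly was used here. Positions are 1-based on a chimpanzee assembly with chromosomes 2A and 2B, whose version the sources used here do not give. Markers of neural and glial progenitors could not be set against the peaks for the same reason.

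Members were wider and stronger than the narrow N2 peaks that found no partner. The rule itself favours wide peaks, since a wider peak has more bases on which an overlap of 1 base can fall. Stronger peaks were also wider, so the contrasts in width and signal are not separate. The median member was 1430 bases wide (quartiles 626 and 2451), with a signal value of 4.42 (2.86 and 10.7). The signal value is the authors' own figure for each peak, a fold of reads over background. The 49865 narrow N2 peaks that touched no N3 peak had a median width of 571 bases and a median signal value of 2.81. A further 4842 narrow N2 peaks touched only N3 peaks of 5000 bases or more, and these lay between the other sets, at 1076 bases and 3.43. The N3 list gave a like picture, with medians of 1517 bases and 5.03 for the partners against 556 bases and 2.78 for the 36423 narrow N3 peaks that touched no N2 peak.

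The share of narrow N2 peaks that were members grew with signal. It was 26.7% in the weakest 25% of the list (signal value up to 2.53; exact binomial interval 26.1% to 27.2%, counting error only) and 31.2% in the next. It then reached 44.1%, and 73.3% in the strongest 25% (from 5.49 upward; interval 72.7% to 73.8%). By width, where the rule itself favours wide peaks, the share ran from 24.8% for peaks of 268 to 433 bases to 68.5% for peaks of 1848 to 4999 bases. Around the width limit no break was seen. Of 1329 N2 peaks from 4500 to 4999 bases wide, 82.5% touched an N3 peak of any width, and of 1016 from 5000 to 5499 bases, 86.3% did. Median signal values were 14.9 inside the limit and 15.6 outside it, and the N3 peak of largest overlap was narrow in 78.7% and 70.1% of cases.

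Most members matched a single N3 peak that matched no other member. These 31885 pairs held 74.8% of the members and are the base of all comparisons of width, summit and rank given here. Peaks that split or merged made up the rest. In 3332 places several N2 members (7011 peaks, up to 5 in a place) lay under 1 N3 peak, whereas in 2698 places 1 N2 member lay over several N3 peaks (5679, also up to 5). In another 478 places several peaks of each stage were chained together. Where N2 members joined under 1 N3 peak, the strongest N2 peak of the place had a median signal value of 3.66, against 7.30 for the N3 peak, and the summed width was 1611 bases at N2 and 2741 at N3. Where 1 N2 member was divided, the values ran the other way, with a signal value of 6.49 at N2 and 3.91 for the strongest N3 peak, and widths of 2771 and 1688 bases. The stage with the single peak was the stage of higher signal in both cases. The grouping itself favours a wide single peak, and wider peaks were also stronger within each list, so this is not a separate result.

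Pairs as a whole had nearly the same width at both stages, but single pairs often did not. The median width was 1590 bases at N2 and 1604 at N3, and the median log2 ratio of N3 over N2 width was -0.00065 (quartiles -0.48 and 0.51). Regardless of direction, the wider peak of a pair exceeded the narrower by a median of 1.41-fold. Past a limit of 1.5-fold, 7358 pairs (23.1%) were wider at N3 and 7003 (22%) narrower. Among all 34377 one-to-one pairs of peaks of any width, most of which are these narrow pairs, the shares were 22.8% and 22.5%. The N2 and N3 peaks of a pair shared a median of 65.2% of the bases they covered together. In 33.4% of pairs the N3 peak lay wholly within the N2 peak, in 34.3% the reverse held, and in 32.3% the peaks were staggered. Neither edge moved more than the other. The N3 peak reached a median of 3 bases further on the left and 3 on the right, with quartiles of -234 and 249 bases on the left and -235 and 246 on the right.

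**Figure D1:**
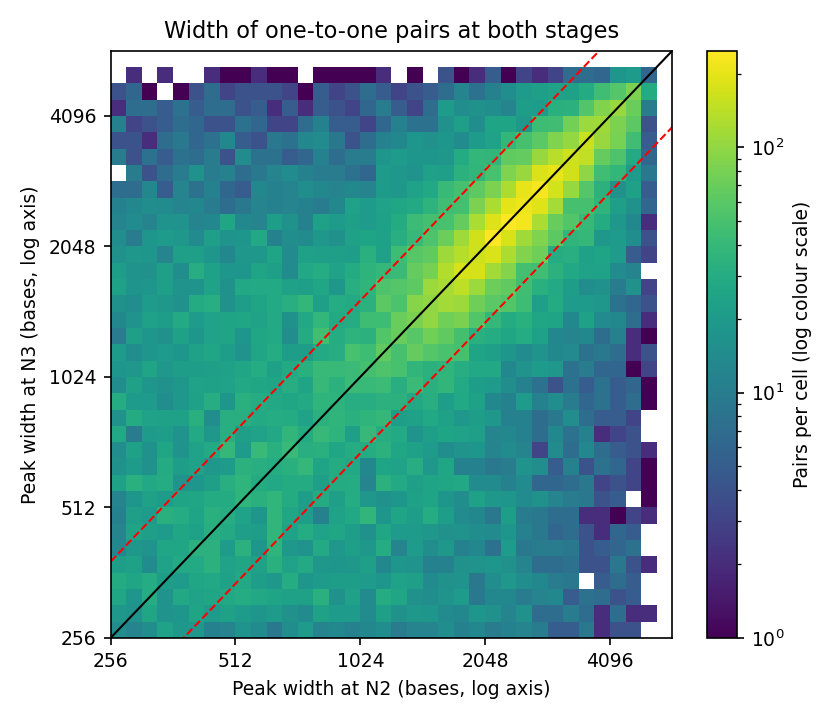
Width of the 31885 one-to-one pairs at N2 (x axis) and N3 (y axis), both in bases on log axes, with colour for the number of pairs in a cell on a log scale, a solid line at equal width and dashed lines at 1.5-fold. Pairs of about 2000 bases and more gather along the equal-width line, while pairs with a peak under 1000 bases fill the plane without a ridge of that kind.

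Wide pairs kept their width more closely than narrow ones. Pairs were classed by the geometric mean of both widths, which favours neither stage. The median fold between the widths was 2.19 for the 8101 pairs of 500 to 1000 bases, 1.5 for the 10267 of 1000 to 2000 bases, 1.20 for the 7132 of 2000 to 3000 bases and 1.13 for the 3739 of 3000 to 5000 bases. The class under 500 bases (2646 pairs) stood at 1.42, and its peaks cannot be much narrower, since the narrowest peaks in the lists have 268 bases at N2 and 273 at N3. The width limit also bounds how far the widest class can differ. The share of pairs wider at N3 past 1.5-fold fell across classes from 37.0% at 500 to 1000 bases to 5.40% at 3000 to 5000 bases, and the share narrower from 34.7% to 6.31%. Median signal values of these classes at N2 were 3.04 and 19.8.

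The pairs that widened most had very short peaks at N2. On chromosome 5 a peak of 268 bases at N2 (79122615 to 79122882, signal value 2.13) lay inside an N3 peak of 4766 bases (79119233 to 79123998, signal value 18.3). The N3 peak was 17.8-fold wider, yet the summits lay 43 bases apart. On chromosome 1 a peak of 268 bases (79846339 to 79846606, 1.97) met one of 4640 bases (79843441 to 79848080, 8.66). On chromosome 14 another of 268 bases (6277436 to 6277703, 1.94) touched the edge of an N3 peak of 4590 bases (6277612 to 6282201, 16.3), and their summits were 2755 bases apart. All 3 N2 peaks had the smallest width in the list. They were weak calls, with a −log10 p of 2.74, 2.43 and 2.48, where the lowest in the list was 2.00.

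Those that narrowed most were the mirror image, with short N3 peaks that the width limit likewise requires. A peak of 4800 bases on chromosome 10 (32977994 to 32982793, signal value 11.1) was met at N3 by one of 274 bases near its right end (32982008 to 32982281, 2.54). One of 4879 bases on chromosome 11 (58405714 to 58410592, 7.91) was met by 280 bases (58406760 to 58407039, 2.24). One of 4895 bases on chromosome 2A (61833612 to 61838506, 12.5) was met by 290 bases (61837958 to 61838247, 2.81). In each of these 3 pairs the summits lay over 1900 bases apart (1950, 2319 and 2450), and the N3 peak did not cover the N2 summit. The −log10 p of these N3 peaks was 4.47, 3.30 and 6.04, where the lowest in the list was 2.00.

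The summit is the base of highest signal within a peak. N2 and N3 summits of a pair lay a median of 101 bases apart (quartiles 35 and 272), which is less than the length of DNA wrapped by a nucleosome. They lay within 10 bases of each other in 2825 pairs (8.86%), within 50 in 32.6%, within 200 in 68.1% and within 1000 in 97.3%, and 143 pairs had the same summit base. A summit moved by over 500 bases in 4004 pairs (12.6%), against 13.7% of one-to-one pairs of any width. The direction was even, with the N3 summit to the right of the N2 summit in 49.7% of the pairs whose summits differed. In 2790 pairs (8.75%) the N2 summit lay outside the N3 peak, and in 2715 (8.51%) the N3 summit lay outside the N2 peak.

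The median summit distance was shorter in strong pairs than in weak pairs. Pairs were sorted by the mean of their percentile ranks of signal at both stages. From a mean rank of 20 to 30, the median summit distance was 168 bases, and 18.6% of 4296 pairs had summits within 50 bases. It was 114 bases from 50 to 60, 54 from 70 to 80 and 31 above 90, where 65.3% of 2853 pairs had summits within 50 bases. The share moved by over 500 bases did not follow that order throughout. It was 8.24% below a mean rank of 10 and 9.34% from 10 to 20, where peaks are short, then highest at 17.7% from 30 to 40, 15.2% from 50 to 60 and 5.33% above 90.

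Width and summit distance were related in a different way. In the class of 3000 to 5000 bases, 60.6% of summits lay under 100 bases apart, more than the 40.1% in pairs under 1000 bases. These classes differ in signal, and among pairs with a mean rank above 50 the order was reversed. There the share was 81.3% of 466 pairs under 1000 bases and 69.6% from 1000 to 2000 bases. It was 64.6% from 2000 to 3000 bases and 61.7% of 3646 pairs from 3000 to 5000 bases. Among all pairs of the widest class, the share in each further bin of 100 bases fell to 2.41% at 400 to 499 bases. It stood at 2.89%, 3.00% and 2.83% in the following bins, up to 799 bases. In the class of 2000 to 3000 bases the share fell slowly at a like distance, at 3.49%, 3.21% and 3.11% from 400 to 699 bases. In pairs under 1000 bases wide, whose width leaves less room, the share fell at each step, from 8.39% at 300 to 399 bases to 1.22% at 700 to 799. Wide pairs thus often had nearly the same summit, with a flat tail of larger distances. The tail bins are small, at 90, 108, 112 and 106 of 3739 pairs from 400 to 799 bases in the widest class. Whether the tail is a separate set was not tested. Of the 12019 pairs in the upper part of the signal range at both stages (percentile rank above 50), 1111 (9.24%) had a summit that moved by over 500 bases.

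**Figure D2:**
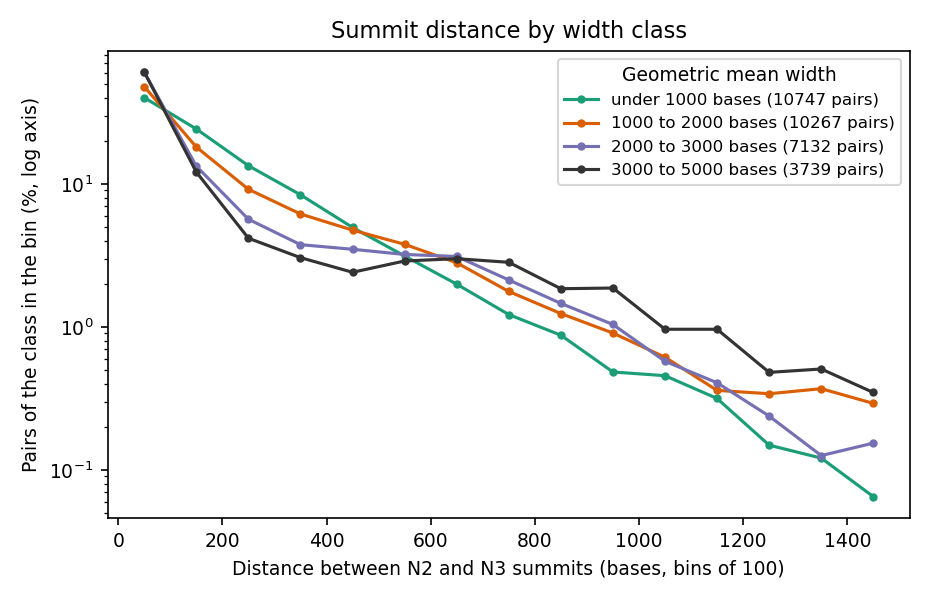
Share of one-to-one pairs (y axis, percent of the width class, log axis) by the distance between N2 and N3 summits (x axis, bins of 100 bases, up to 1500), with 1 line for each class of geometric mean width. The lines for 2000 to 3000 and 3000 to 5000 bases start highest and flatten between about 300 and 800 bases, whereas the line for pairs under 1000 bases falls throughout that range.

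Summits sat around the middle of the peak at both stages. In pairs of 2000 bases or more, the summit stood at a median of 50.1% of the width from the left edge at N2 and 49.9% at N3, with 10th and 90th percentiles of 31.4% and 68.5% at N2. Across these 10871 pairs, the relative positions at both stages correlated at a Spearman rho of 0.469, and the summits lay on opposite sides of their peak's middle in 29.6%. In the 10747 pairs under 1000 bases the correlation was 0.0333, and the sides were opposite in 47.8%. These correlations are across peaks of the same pair of lists and carry no test.

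The largest summit distances came from pairs that shared little sequence. On chromosome 5 an N2 peak of 4847 bases (17367551 to 17372397, signal value 10.3) had its summit near its left end. Its N3 partner of 333 bases (17371967 to 17372299, 3.75) lay at the right end, 4297 bases from summit to summit. On chromosome 17 the N2 peak (73776198 to 73780700) and the N3 peak (73776429 to 73777508) had summits 3320 bases apart at like signal values of 3.36 and 3.61, with percentile ranks of 30.9 and 32.6. On chromosome 4 an N2 peak of 921 bases (149582616 to 149583536, 3.06) lay at the right end of an N3 peak of 4834 bases (149578800 to 149583633, 5.56), with the summits 3245 bases apart.

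Signal values of the pairs spread over weak and strong peaks rather than around a single level. At N2 the most filled bin on a log2 scale ran from 2.38 to 2.83 (3722 pairs). Counts fell to 1173 pairs from 11.3 to 13.5 and rose again to 1568 from 19.0 to 22.6. At N3 the weak peak of the distribution stood in the same bin (3425 pairs), the low point was shallower (1344 from 11.3 to 13.5) and the strong one lay at 22.6 to 26.9 (1524 pairs). Median signal values were 5.14 at N2 and 5.76 at N3, and the median −log10 p was 19.4 and 25.9. The scale of these values can differ between the pools, so stages were compared by rank. Each pair received its percentile rank among the 31885 pairs at each stage, so that both stages ranked the same number of peaks.

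Ranks were kept best at the top of the range. Signal at N2 and N3 correlated at a Spearman rho of 0.677 over all pairs, and width at 0.534. Of the 7971 pairs in the strongest 25% at N2 (signal value of 13.4 or more), 76.5% were in the strongest 25% at N3, 18.4% in the next and 1.54% in the weakest. Of the 7984 pairs in the weakest 25% at N2, 47.0% stayed in the weakest, 16.8% reached the third class and 2.25% the strongest. In the second class 35.6% stayed. Of the 1000 pairs with the highest signal at each stage, taken from all 31885 pairs, 383 were the same (38.3% of each list).

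A pair was said to rise or fall in rank past a change of 20 percentile points. From N2 to N3, 5502 pairs (17.3%) rose and 5263 (16.5%) fell. Of these, 3962 and 3964 had a mean rank up to 50. From a mean rank of 30 to 40, 29.8% rose and 29.1% fell. Ranks end at 0 and 100, so a mean rank under 10 or above 90 leaves no room for such a change. The room also shrinks towards both ends. At equal distance from the ends, 25.7% rose and 27.1% fell from 20 to 30, and 10.3% and 5.62% from 70 to 80. Weak signal values lie close together, so 20 points there span a small difference in signal. The median at N2 was 2.62 from a mean rank of 10 to 20 and 3.06 from 20 to 30, but 13.8 from 70 to 80 and 20.5 from 80 to 90. The shares among one-to-one pairs of any width were 17.1% and 16.1%. With overlap of at least 50% of each peak required, the count of members was 23832 and the share that moved in either direction was 19.7%, against 33.8%. That requirement removes pairs of unlike width.

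**Figure D3:**
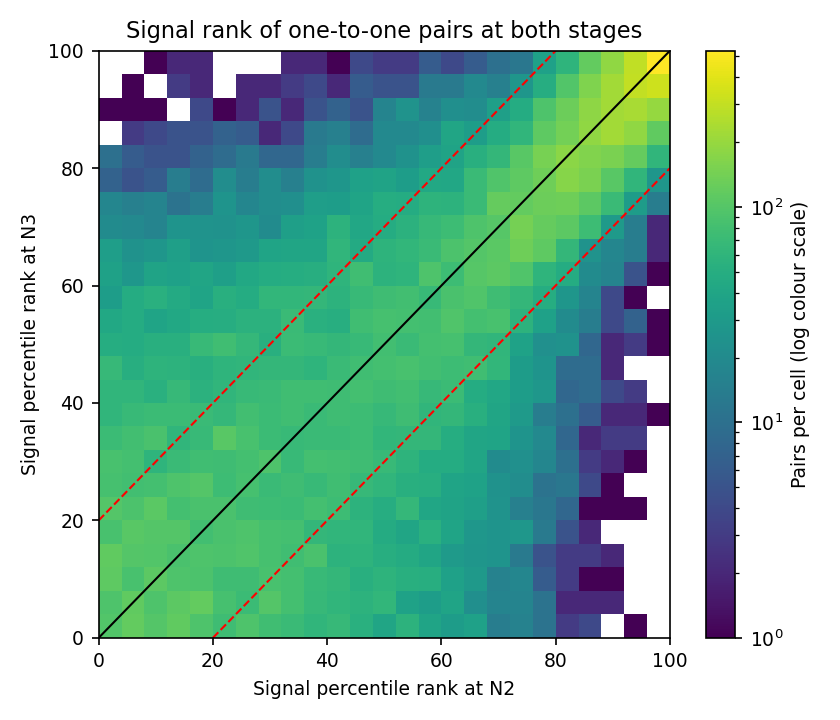
Percentile rank of signal among the 31885 one-to-one pairs at N2 (x axis) and N3 (y axis), with colour for the number of pairs in a cell on a log scale, a solid line at equal rank and dashed lines at a change of 20 points. Above a rank of about 70 at both stages the pairs draw together along the line, and the corners of opposite rank are nearly empty.

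Rank and width moved together. Of the pairs that rose in rank, 77.0% were wider at N3 past 1.5-fold and 1.02% narrower. Of those that fell, 75.4% were narrower and 1.27% wider. Among the 21120 pairs that stayed within 20 points, 14.5% were wider and 14.1% narrower. Pairs that rose had median widths of 710.5 bases at N2 and 2082 at N3, and median signal values of 2.80 and 7.71. Pairs that fell had widths of 1942 and 680 bases, and signal values of 6.37 and 2.75. The change of rank and the log2 ratio of widths correlated at a Spearman rho of 0.747 over all pairs. Within 1 list width and signal were already related (rho 0.802 at N2, 0.819 at N3), and both come from the same reads, so they are not separate readouts. Summits lay further apart in pairs that moved in rank, at a median of 142 bases in those that rose and 148 in those that fell, against 82 in the rest. Most pairs that moved were weak, however, with a mean rank up to 50. All pairs with a mean rank of 30 to 40 had a median summit distance of 163 bases, and those from 40 to 50 had 138. Summit distance at like signal was not compared between pairs that moved and the rest.

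The strongest shared peaks were strong at both stages, with nearly the same outline. The pair with the highest mean rank lay on chromosome 10 (33373675 to 33378040 at N2, 33374024 to 33377928 at N3). It had the highest signal of all pairs at both stages, with signal values of 63.9 and 69.5, and its summits were 1 base apart. A pair on chromosome 2A (87247333 to 87251785 at N2) followed with 56.4 and 60.3, and one on chromosome 11 (130559805 to 130564384) with 54.3 and 60.8. A narrower pair on chromosome 19 (54536210 to 54538520, 2311 bases at N2 and 2028 at N3) had 49.6 and 64.6. Summit distances in these last 3 pairs were 30, 17 and 17 bases, and the widths differed by at most 1.14-fold. The steadiest other pair of the top 10% at both stages, on chromosome 3 (201086646 to 201089435), kept a percentile rank of 98.6, with signal values of 37.1 and 42.5 and summits 11 bases apart.

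The largest rises took peaks from the weak end of the pairs to the strong end. The N2 peaks of the 4 largest were weak calls, with a −log10 p of 3.89, 4.09, 2.43 and 3.76 in the order given here. The lowest in the list was 2.00. On chromosome 18 an N2 peak of 278 bases (30657001 to 30657278) with a signal value of 2.43 was met at N3 by one of 3556 bases (30656232 to 30659787) with 46.3. Its rank went from 9.64 to 99.3. A pair on chromosome 8 (10838732 to 10839240 at N2, 10836348 to 10840253 at N3) went from a signal value of 2.18 to 29.8, and its rank from 4.43 to 93.0. A second pair on chromosome 18 (46745073 to 46745357 at N2, 46745063 to 46748160 at N3) went from 1.97 to 25.1 and rose by 86.8 points. A pair on chromosome 7 (17073970 to 17075642 at N2, 17072501 to 17076754 at N3) went from 2.28 to 26.6 and rose by 84.0 points. The summits of these 4 pairs were 907, 391, 1704 and 652 bases apart, so none of the weak N2 summits lay at the strong N3 summit.

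Just beyond the second pair on chromosome 18 lay another N3 peak of the same kind (46749288 to 46754105, 4818 bases, signal value 36.5), whose N2 partner (46753973 to 46754256) had 284 bases and a signal value of 2.56. It rose by 83.5 points. It was named after its values were seen. In all, 12 pairs rose by over 80 points, and the 3 of them on chromosome 18 are the ones described here.

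In the largest falls the N3 peak lay within the N2 outline. The N3 peaks of the 4 largest were weak calls, with a −log10 p of 4.35, 2.62, 2.76 and 2.39 in the order given here. The lowest in the list was 2.00. A peak of 2923 bases on chromosome 16 (18734594 to 18737516) with a signal value of 26.6 was met at N3 by one of 583 bases (18735572 to 18736154) with 2.01, and its rank went from 92.7 to 2.37. One of 2784 bases on chromosome 10 (12653770 to 12656553) with 21.1 was met by 318 bases (12654685 to 12655002) with 1.88. One of 4063 bases on chromosome 18 (74512561 to 74516623) with 22.1 was met by 319 bases (74514583 to 74514901) with 2.02. On chromosome 7 a peak of 4715 bases (3880883 to 3885597) with 20.0 was met by one of 386 bases (3881030 to 3881415) with 1.68. The pairs on chromosomes 16 and 10 kept their summits within 96 and 22 bases, while those on chromosomes 18 and 7 were 744 and 2484 bases apart. In all, 10 pairs fell by over 80 points.

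**Figure D4:**
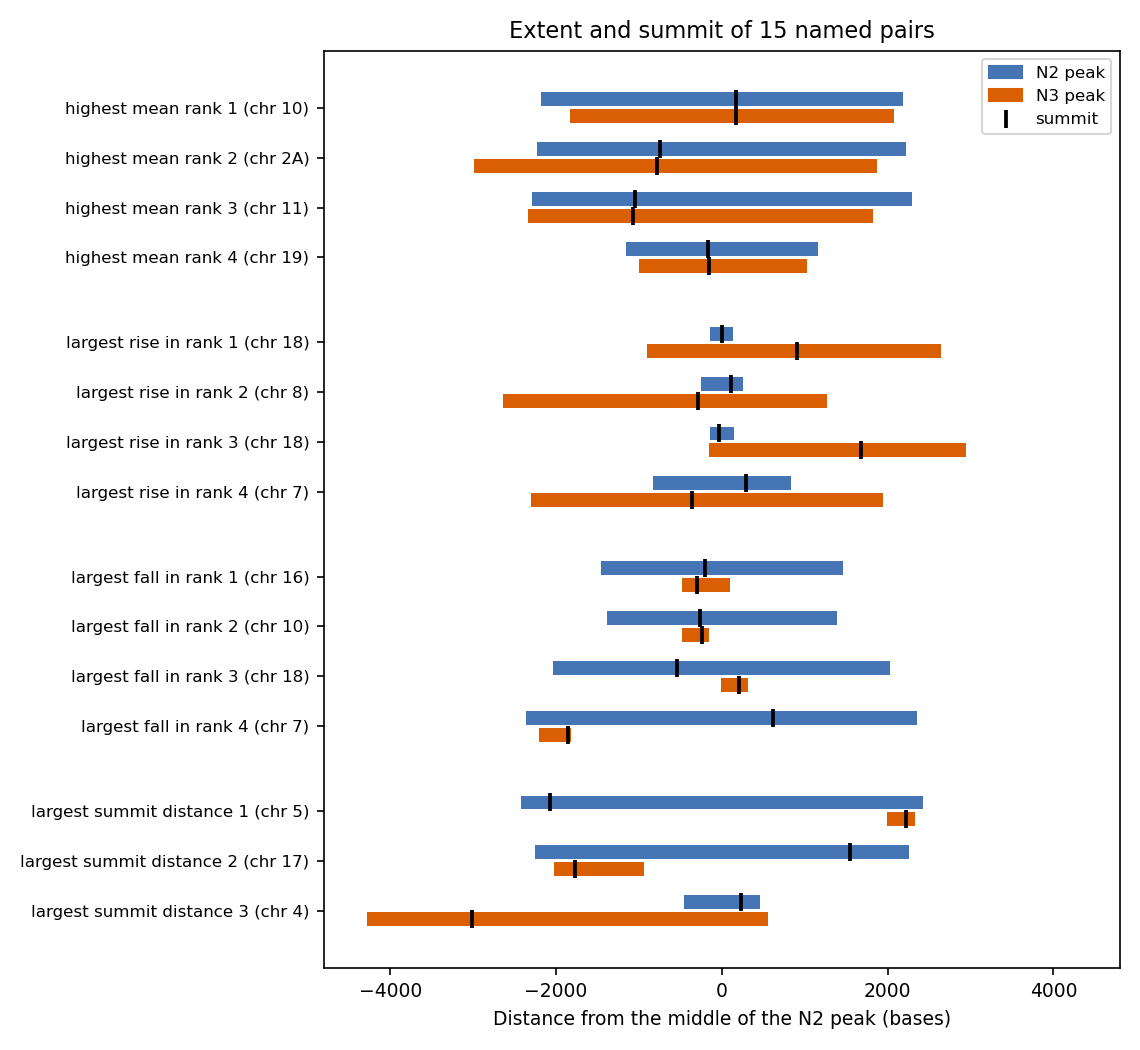
Extent (bars) and summit (black ticks) of 15 named pairs at N2 and N3, drawn to scale as the distance in bases from the middle of the N2 peak. The 4 strongest pairs share outline and summit, while the 4 largest rises, the 4 largest falls and the 3 largest summit distances set a short peak of 1 stage beside or within a long peak of the other.

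Chromosomes differed in the share of their narrow N2 peaks that were members, and by a few points in rank. Members made up between 39.0% (chromosome 10) and 51.0% (chromosome 19) of the narrow N2 peaks of a chromosome, leaving out Y with 41 members. The median change of rank was lowest on chromosomes 16 (-3.27 points, 1122 pairs), 17 (-2.87, 1454 pairs), 20 (-2.38, 852 pairs) and 22 (-2.28, 716 pairs). It was highest on 12 (0.906, 1651 pairs) and X (0.79, 993 pairs), again apart from Y (3.80, 33 pairs). On chromosome 16, 12.4% of pairs rose and 18.0% fell, and on 17, 12.1% and 19.0%. On X, 16.9% rose and 11.0% fell. These medians were small beside the spread of single pairs, whose quartiles were -12.8 and 12.7 points. Among pairs with a mean rank above 50 the medians were -2.68 on chromosome 16, -2.03 on 17, -2.19 on 20, -2.15 on 19, -1.81 on 22, 0.90 on 12 and 1.00 on X. Chromosome 19 had the highest median signal values of the numbered chromosomes, at 10.8 at N2 and 10.4 at N3, against 5.14 and 5.76 over all pairs.

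**Figure D5:**
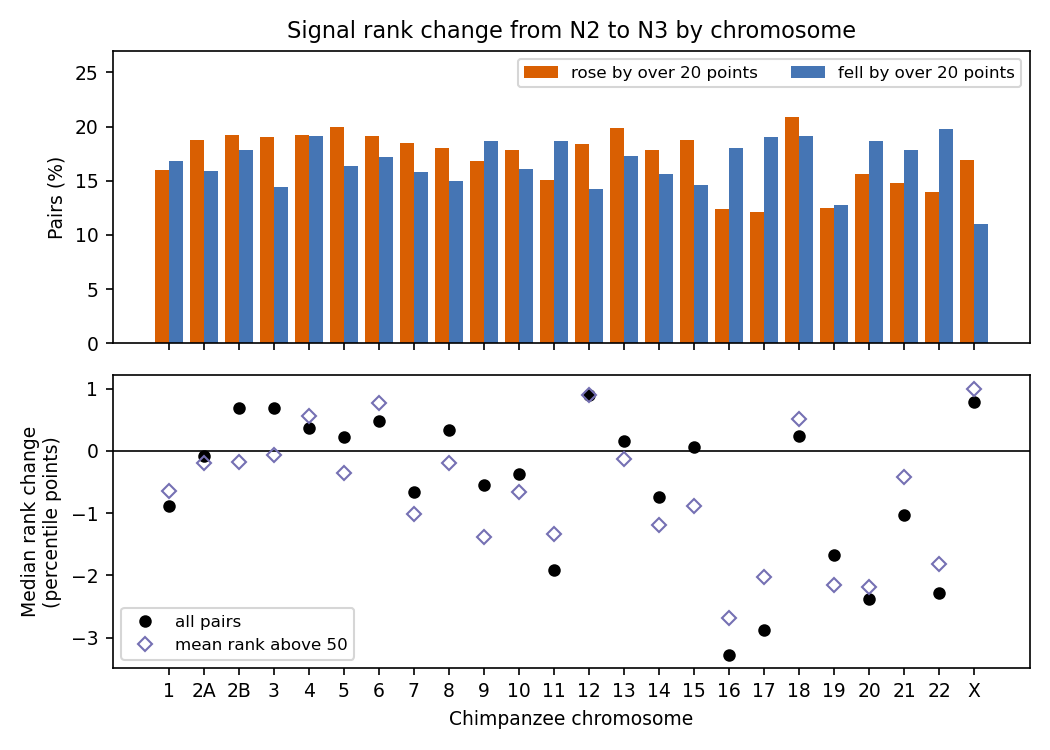
Upper panel, share of one-to-one pairs (y axis, percent) that rose or fell by over 20 percentile points on each chimpanzee chromosome (x axis, Y left out). Lower panel, median rank change in percentile points for all pairs (dots) and for pairs with a mean rank above 50 (open diamonds), with chromosomes 16, 17, 20 and 22 lowest and 12 and X highest among all pairs.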

How the data were processed

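The deposited H3K27ac ChIP-seq peak lists of Pt2A at N2 and N3 were used. Per the file names, each was called on pooled replicates; the sources used here do not name the caller, and the submitters' processing notes name only GRCh37, a human build. The deposited files give per peak a start, an end, a summit offset, a score (10 times the −log10 p, as a whole number), a signal value (a fold over background, the authors' own value), a −log10 p and a −log10 q. The lowest −log10 p was 2.00 in both lists, so weak peaks are included. No peaks overlapped within a list.

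Overlaps, pairs and ranks were computed in Python 3.11.15 with pandas 2.3.3, scipy 1.17.1 and numpy 2.4.6. The pairing was tested on simulated data of well separated peaks, which held no split or merged peaks and so did not test those. A pair is an N2 and an N3 peak under 5000 bases that overlap each other and no other narrow peak. A change means past 1.5-fold in width, 500 bases in summit or 20 percentile points in rank. Named are the 4 pairs of highest mean rank, the 4 largest rises and falls in rank, the 3 that widened or narrowed most, the 3 largest summit distances and the 2 steadiest of the top 10%. Nearest genes and motifs were not analysed here, since no genome of the build was used. The members and lists were chosen with earlier results of these data known.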

Additional observations from a re-analysis of the deposited data

How the results depend on the processing

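With a width limit of 3000 bases, the median summit distance was 104 bases (101 as reported), 37.3% of pairs moved in rank (33.8%) and the signal rank correlation was 0.624 (0.677). With overlap of at least 50% of each peak, there were 23832 members (42653), and the other values were 78 bases, 19.7% and 0.846. With a −log10 q of at least 5 there were 26316 members, a median log2 width ratio of -0.0096 (-0.00065), 79 bases and a correlation of 0.687. With all members, each set against the N3 peak of largest overlap, the width ratio was 0.085 (N2 peaks merged at N3 each count), the distance 131 bases, the share 41.2% and the correlation 0.55. With −log10 p in place of signal, 32.3% moved and the correlation was 0.699. With ranks within each whole list, whose lengths differ, 34.3% moved, and past 10 points 58.2% did. Between peak middles the median distance was 144 bases. Without X and Y there were 41319 members, 102 bases, 33.9% and 0.674. Without peaks that touch a broad peak, a choice made after seeing the data, there were 42404 members, 100 bases, 33.7% and 0.68. No paired analysis was possible because each stage has 1 pooled list, so replicates could not be left out either. Depth is unknown.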

Other observations

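Neighbouring pairs tended to move in rank in the same direction, including over long distances. Across 5334 adjacent pairs less than 5000 bases apart, the changes of rank correlated at a Spearman rho of 0.172, and the log2 width ratios at 0.283. For 5796 adjacent pairs from 100000 to 1000000 bases apart the values were 0.125 and 0.153. After a pair that rose, the next pair within 5000 bases rose in 24.1% of cases, and after one that fell, in 9.73%. Of the 5334 first pairs in this range 792 rose, and over all pairs 17.3% did. From 100000 to 1000000 bases apart the shares were 29.7% and 17.2%, and 1246 of the 5796 first pairs rose. Neighbours share 2 pooled lists and are not independent, so no test was run.

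Some windows of 1 Mb, chosen after their values were seen among 900 windows with at least 15 pairs, moved largely one way. On chromosome 2A from 16000001 to 17000000, 11 of 18 pairs rose in rank and 0 fell, with a median change of 26.6 points. On chromosome 18 from 54000001 to 55000000, 12 of 20 rose and 2 fell. In the opposite direction, 10 of 18 pairs fell and 1 rose on chromosome 18 from 42000001 to 43000000, with a median change of -23.2 points, and 15 of 32 fell and 1 rose on chromosome 9 from 105000001 to 106000000. The central 90% of the windows had medians from -10.3 to 8.73 points.

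Pairs that fell in rank lay near a broad N2 peak (5000 bases or more, within 20 kb of the N2 summit) in 25.2% of cases, against 12.7% of pairs that rose and 18.1% of the rest. For broad N3 peaks the shares were 15.2%, 17.5% and 15.8%. Among pairs with a mean rank above 50, 19.5% of those that fell, 8.38% of those that rose and 11.8% of the rest lay near a broad N2 peak, and 9.70%, 13.2% and 9.81% near a broad N3 peak. Among pairs with a mean rank up to 50 the pattern differed, at 27.1%, 14.4% and 26.2% for broad N2 peaks and 17.1%, 19.2% and 23.5% for broad N3 peaks. The lists hold 5333 broad N2 and 4394 broad N3 peaks. Pairs that fell also had more N2 peaks within 50 kb, a median of 9, against 6 for those that rose and 7 for the rest. For N3 peaks the medians were 7, 7 and 6. Whether nearness to broad N2 peaks differs at like peak density was not tested.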
